A study of Gallus gallus with 33 samples.

Results

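The zinc finger genes whose identifier began with ZNF, ZFP or ZF, followed by a capital letter or a digit, were followed in laser-wounded sensory epithelia (SE) of the chick utricle. The rule took 170 of the 1516 identifiers analysed on a transcription factor (TF) microarray, and left out mismatch versions of probes, whose names end in mm and a digit. The identifiers are those of the array design, many are older human symbols, and each of the 170 was spotted 2 times on every array.

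Most of these genes encode proteins with a row of short fingers, each folded around a zinc ion by cysteine and histidine residues, which read DNA sequence. In the largest group a KRAB domain at one end recruits the corepressor TRIM28 (KAP1), which brings in enzymes that make heterochromatin, and many KRAB zinc finger proteins are known in mammals for silencing retrotransposons. SCAN and BTB domains are used by other members to pair with each other or with cofactors. Some identifiers of the same name series belong to proteins of another kind, such as RING finger ubiquitin ligases, MYM finger proteins and RNA-binding proteins like ZFP36 (tristetraprolin).

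SE isolated from the utricles of post-hatch White Leghorn chicks were grown as semi-confluent cultures and given linear wounds with a pulsed laser microbeam, and several cultures were pooled for 1 biological sample. Laser RNA and RNA of unlesioned, time-matched control cultures were hybridized together, 1 in Cy3 and 1 in Cy5, with a recovery of 30 min (5 arrays from 2 samples), of 1 hr (6 arrays from 2 samples), of 2 hr (8 arrays from 2 samples) or of 3 hr (14 arrays from 3 samples), which addresses the first responses to the wound. Laser and control cultures shared breed, culture and handling, and differed in the lesion. The RNA was amplified, and the probes were short oligonucleotides designed on human coding sequence, so chick transcripts were read across species.

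The 33 arrays differed widely in brightness. The share of members with a laser signal over 2 SD above local background ran from 1.76% to 100% of the 170 (median array 35.3%), and in the control channel from 1.76% to 100% (median 23.5%). Of the markers of utricle hair cells, 0 of 3 passed the filter on dim probes used below, and the signal over background was 1.02 for ATOH1, 1.06 for POU4F3 and 1.30 for GFI1. Of 6 markers of sensory epithelium and supporting cells 2 passed, SOX2 at 2.88 being the brighter. Of 3 blood markers 1 passed (SPI1, 1.97). The mesenchyme list held 6 names, with TWIST1 also as TWIST and PRRX1 also as PMX1. Of these names 3 were on the array and 0 passed. One library stood apart. The log2 ratios of laser over control in 3 hr replicate 1 had an SD of 0.99 over the 21 members tested, against 0.17 to 0.38 in the other 8 samples, so 3 hr values are given with and without it. A second limit concerned direction. In 4 samples (1 hr replicate 2, 2 hr replicate 2, 3 hr replicate 2 and 3 hr replicate 3) the ratios of both dye orientations, each turned to laser over control, correlated below -0.3 over the probes tested, and values for these samples are also given with the sign turned. A sample is the mean of both orientations, so opposed ratios partly cancel in it. Over the 21 members the orientations correlated at 0.91 in 3 hr replicate 1. In 3 hr replicate 3, where the SD was 0.17, they correlated at -0.92. How far such cancelling lowered the SDs was not tested.

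The members were dim. The signal over local background was taken as the median over the 33 arrays and both channels, where 1 means no signal above the slide around the spot. This ratio also depends on how well a human probe matches chick RNA, so it says how readable a probe was and not how abundant a transcript was. The members had a median of 1.17 (quartiles 1.05 and 1.38), against 1.36 (quartiles 1.2 and 1.58) for the 1346 other identifiers. The lowest member was ZNF226 at 0.873 and the highest ZNF10 at 3.20, and the highest of the other identifiers was 14.2. Of the members, 143 of 170 (84.1%) lay above 1 and 6 (3.53%) above 2. Of the other identifiers 1282 of 1346 (95.2%) lay above 1 and 138 (10.3%) above 2. The median of the members was 1.25 in laser RNA and 1.09 in control RNA, and that of the others 1.40 in laser RNA and 1.28 in control RNA. In time order the members' median was 1.37, 0.88, 1.24 and 1.32, and that of the others 1.44, 1.08, 1.41 and 1.45. At 1 hr the median member thus lay below its local background.

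**Figure D1:**
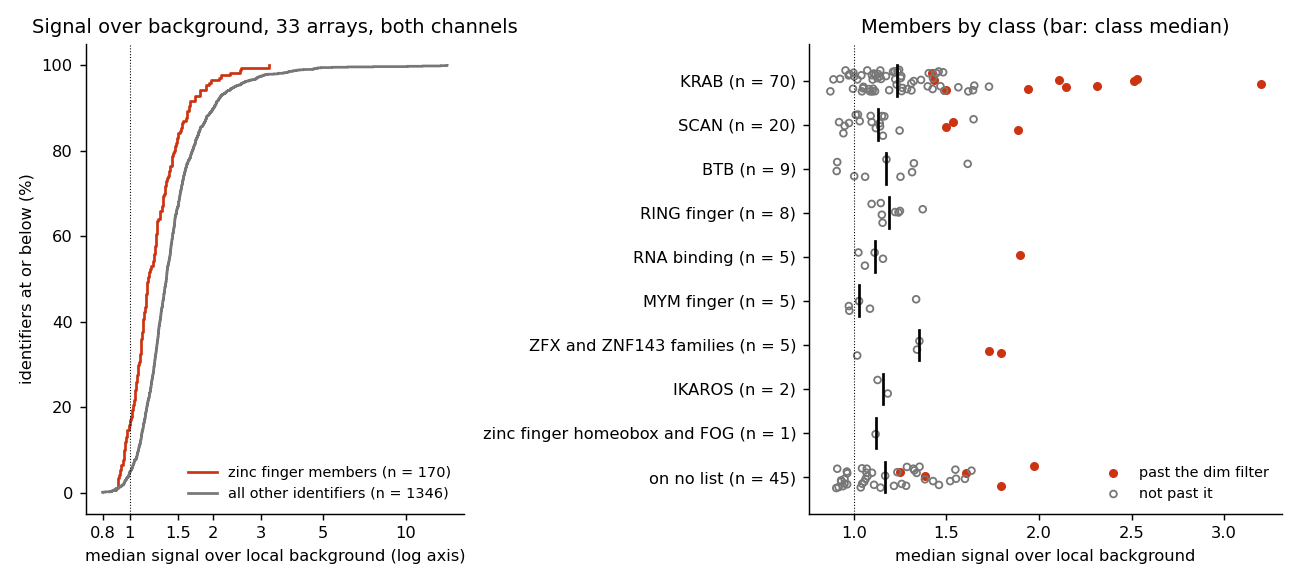
The left panel plots the share of identifiers (%) at or below each median signal over local background (log axis), for the 170 zinc finger members (red) and the 1346 other identifiers (grey). The right panel plots each member by class, filled where it passed the dim filter, with the class median as a bar. The red curve lies to the left of the grey one, with medians of 1.17 and 1.36, and the 6 members above 2 are all in the KRAB class.

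The same order was found on single arrays. The members' median signal over background was below that of the others on 29 of 33 arrays in the laser channel and on 31 of 33 in the control channel. The 4 exceptions in the laser channel were the 4 arrays of an earlier print in 3 hr replicate 1, where the members' medians were 2.68, 2.2, 1.45 and 1.08 against 1.43, 1.51, 1.25 and 0.98 for the others. The control channel of these arrays had members' medians of 0.87, 1.23, 0.82 and 0.95, against 0.86, 1.45, 0.87 and 0.89 for the others. The fifth array of that print, in 2 hr replicate 1, had 0.96 for the members and 1.04 for the others in the laser channel. The earlier print was thus present in 2 samples only, and its part in these values was not tested.

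**Figure D2:**
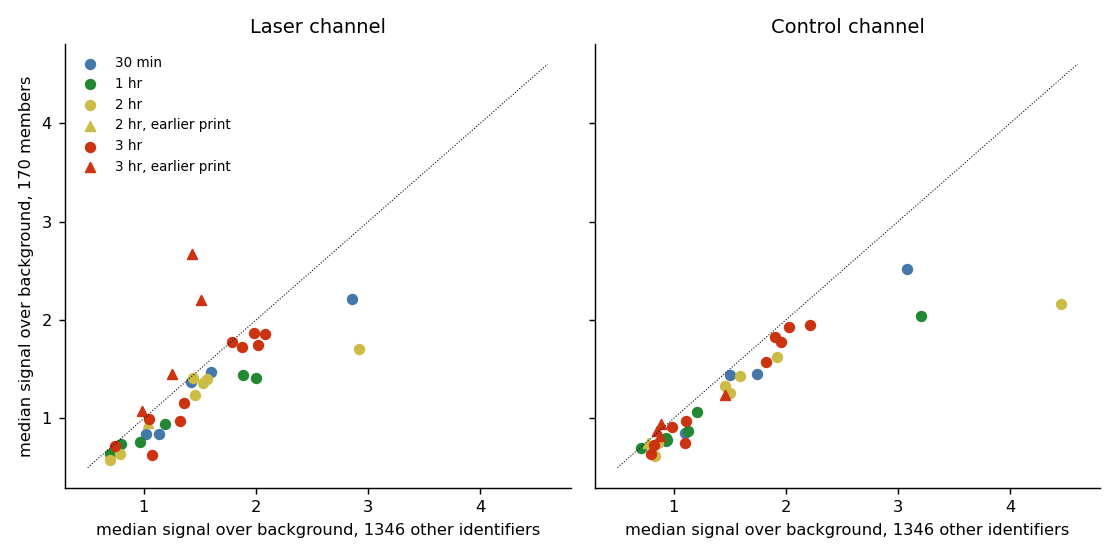
Each point is 1 array, with the median signal over local background of the 1346 other identifiers on the x axis and that of the 170 members on the y axis, for the laser channel (left) and the control channel (right), coloured by time point. Triangles are arrays of the earlier print, and 4 of them lie above the line of equality in the laser channel, while 29 of 33 arrays lie below it there and 31 of 33 in the control channel.

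The 6 members above 2 were ZNF10 (3.20), ZNF93 (2.53), ZNF79 (2.51), ZNF75A (2.31), ZNF44 (2.15) and ZNF205 (2.11), and all 6 encode KRAB zinc finger proteins. ZNF10 (KOX1) is the protein whose KRAB domain is widely used as an engineered repressor, and ZNF93 represses retrotransposons in human cells. ZNF32, a zinc finger protein without a KRAB domain, followed at 1.98 and ZNF273, again of the KRAB class, at 1.94. Among all 1516 identifiers ZNF10 ranked 29 and ZNF273 ranked 162. For ZNF10, the signal over background was 6.05 and 2.52 in the 2 samples of 30 min, 4.4 and 5.1 in those of 1 hr, 1.69 and 3.14 in those of 2 hr, and 2.60, 13.4 and 2.70 in those of 3 hr. It was above 1 in every sample, and the time points overlapped. For ZNF93 the samples lay between 1.08 and 4.02, and for ZNF75A between 0.753 and 14.2. Neighbours in this order differed by less than their own spread over arrays, since the quartiles over the 66 channels were 2.21 and 12.1 for ZNF10, 1.59 and 3.70 for ZNF93, and 1.40 and 3.24 for ZNF273.

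By class, the 70 KRAB members had a median signal over background of 1.23 and the 20 SCAN members 1.13. The SCAN member with the highest value was ZNF187 (ZSCAN26) at 1.88. The 9 BTB members had a median of 1.18, with ZNF46 (ZBTB25) highest at 1.61, and the 8 RING finger members 1.19, with ZNF173 (TRIM26) highest at 1.37. The 5 members of the ZFX and ZNF143 families, transcriptional activators in human cells, had 1.35, with ZFY highest at 1.80. The 5 RNA-binding members had 1.11, with ZFP36 highest at 1.90. ZFP36 binds AU-rich elements and speeds the decay of cytokine mRNAs in mammals. The 5 MYM finger members had 1.03 (ZNF261, or ZMYM3, highest at 1.34). The IKAROS list held 2 members at 1.13 and 1.18, the second being ZNFN1A3 (IKZF3, a lymphocyte factor), and ZFHX1B (ZEB2) at 1.12 was the only member of the homeobox and FOG list. The other 45 members were on no list and had a median of 1.17.

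Few members carried a name found in the chick. Against the symbols and synonyms of a chicken gene table (assembly GRCg7b, used for names alone), 27 of 170 members matched (15.9%, 14 by symbol and 13 by synonym), compared with 790 of 1346 other identifiers (58.7%). Members with a chick name had a median signal over background of 1.16 and 4 of 27 passed the dim filter (14.8%), and those without a chick name had 1.17 and 17 of 143 passed (11.9%). Of the 8 brightest members named above 0 matched, since those with a match and past the filter were ZFP91, ZFP92, ZNF76 and ZNF277. ZFP91 is a ubiquitin ligase with zinc fingers, and ZNF76 is a relative of ZNF143.

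A probe was tested where 50% or more of its arrays had a signal above 1000 in at least 1 channel. This kept 21 of 170 members (12.4%) and 357 of 1346 others (26.5%), or 378 of 1516 identifiers in all (24.9%). The 21 were 10 of the KRAB class (ZNF10, ZNF44, ZNF75A, ZNF79, ZNF93, ZNF155, ZNF205, ZNF254, ZNF273 and ZFP92), the SCAN members ZNF38, ZNF187 and ZNF274, ZFY and ZNF76, ZFP36, and ZFP91, ZNF32, ZNF271, ZNF277 and ZNF298. ZNF274 recruits a histone methyltransferase in human cells, and ZNF38 is now ZSCAN21. The BTB, RING finger, MYM finger and IKAROS lists had 0 members past the filter. The edge of the filter was narrow. Just inside it stood 6 members with 17 of 33 arrays (ZNF155, ZNF274, ZFP92, ZNF254, ZNF271 and ZNF298), and just outside it 8 members with 16 of 33 (ZNF21, ZNF37A, ZNF41, ZNF80, ZNF92, ZNF169, ZNF230 and ZNF275). Under a rule of 2 SD above local background 59 members passed (34.7%) of 835 identifiers (55.1%), and when 1000 was required in both channels on 80% of arrays 0 members passed of 4 identifiers (0.264%). Without 3 hr replicate 1, 12 members passed, 11 of them among the 21. The share of members past each of these rules was below the share of all identifiers.

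Laser over control was then examined, as the log2 ratio in each biological sample, with values above 0 higher after the lesion. In cultures of mixed cells, fewer cells of a type and less RNA per cell cannot be told apart. Over the 21 members tested the median ratio was 0.04 and -0.32 in the samples of 30 min, 0.06 and -0.11 in those of 1 hr, -0.05 and -0.05 in those of 2 hr, and -0.07, 0.12 and 0.10 in those of 3 hr. The medians over all 378 tested identifiers were 0.04 and -0.13, 0.05 and -0.04, 0.02 and -0.03, and -0.34, 0.03 and 0.06 in the same samples. Samples of 1 time point lay on both sides of 0 at 30 min, 1 hr and 3 hr. On image days that a time point shared with another one, the members' median ran from -0.32 to 0.02 at 30 min (2 days), from -0.11 to 0.01 at 1 hr (3 days), from -0.34 to 0.26 at 2 hr (6 days) and from -0.22 to 0.35 at 3 hr (5 days), so it lay on both sides of 0 at every time point.

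No member passed the test. At an adjusted p under 0.05 (limma, Benjamini-Hochberg over the 378 tested identifiers) 0 of 21 members were called at any of the 4 time points, and percent called over all tested identifiers was 0% at each. In time order, the smallest limma adjusted p of a member was 0.989, 0.993, 0.995 and 0.649. At an unadjusted p under 0.05 there were 0 members at each time, against 3, 4, 7 and 7 identifiers in time order (0.794%, 1.06%, 1.85% and 1.85%). Nor did the F test over the 4 time points call a member, with 0 of 21 at either threshold and 1 identifier of 378 at the unadjusted one (0.265%). The members with the smallest F p were ZNF205 and ZNF75A (limma adjusted p of 0.997 each). A p that misses the threshold does not show that laser and control were alike. The 95% interval of the change lay within 1.5-fold for 9, 9, 12 and 15 of 21 members in time order, while 37.3%, 39.2%, 35.7% and 50.3% of all tested identifiers had such an interval at these times. These intervals hold for the dye reading of the headers. In that reading 3 hr replicate 2 and 3 hr replicate 3 are means of opposed orientations, which partly cancel.

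By size alone, few members moved in the same direction in all samples of a time point. Over 1.2-fold with the same sign in all samples, 2, 2, 1 and 0 of 21 members were found in time order, and the 5 cases were all lower in laser RNA. Of the 378 tested identifiers, 13%, 13.5%, 16.9% and 7.67% met this rule in either direction, and 8.73%, 5.82%, 8.2% and 6.88% with a lower value in laser RNA. The members' shares were 9.52% at 30 min, 9.52% at 1 hr and 4.76% at 2 hr. They were under the either-direction shares at each of these times, and over the lower-in-laser shares at 30 min and 1 hr, where they rest on 2 members each. The 2 at 30 min were ZNF10, with log2 ratios of -0.32 and -0.62, and ZNF277, with -0.13 and -0.42. The 2 at 1 hr were ZFY, with -0.24 and -0.36, and ZNF93, with -0.58 and -0.24. At 2 hr it was ZNF10 again, with -0.53 and -0.22. In time order the median of the 21 was -0.10, -0.07, -0.01 and 0.04, beside -0.03, 0.00, -0.00 and -0.06 over all tested identifiers.

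**Figure D3:**
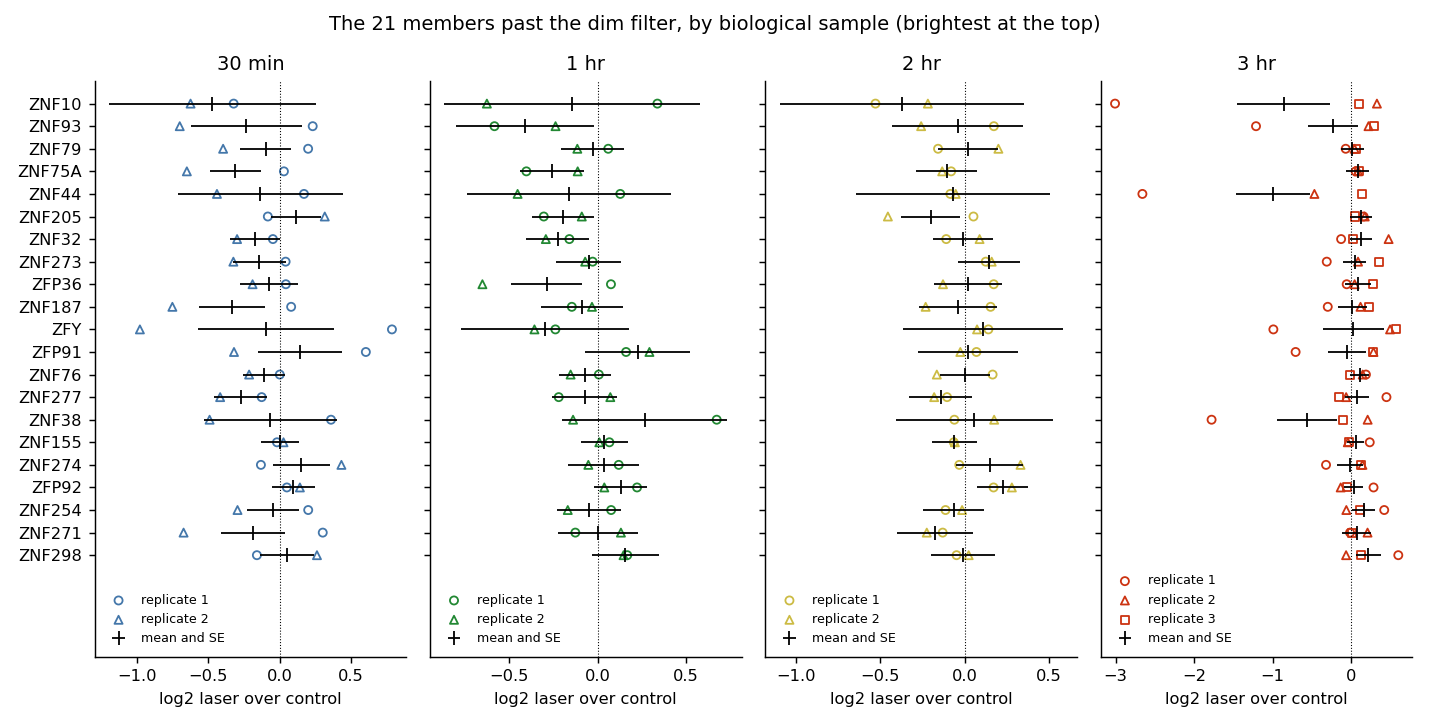
Log2 ratios of laser over control (x axis) of the 21 members past the dim filter, the brightest at the top, at 30 min, 1 hr, 2 hr and 3 hr. Open symbols are biological samples and black bars the mean with its SE from the limma fit, which pools the spread over all 9 samples. Most points lie within 0.5 of 0, and ZNF10 and ZNF44 in 3 hr replicate 1 stand at -3.01 and -2.66.

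The members with the smallest p among those of 1 sign in all samples are given next. At 30 min they were ZNF277 (mean -0.27, SE 0.19), ZNF32 (-0.05 and -0.30 in the samples, mean -0.17) and ZNF10 (mean -0.47, SE 0.72). Only 4 of 21 members had 1 sign in both samples of 30 min. At 1 hr 11 members did, and the 3 were ZNF75A (mean -0.26, SE 0.18), ZNF32 (-0.16 and -0.29, mean -0.23) and ZNF205 (-0.31 and -0.09, mean -0.20). At 2 hr 10 members did, and ZFP92 stood highest (0.17 and 0.28, mean 0.23, SE 0.15). ZNF273 was above 0 as well (0.13 and 0.16, mean 0.14), and ZNF271 below (-0.13 and -0.22, mean -0.18). At 3 hr only ZNF205 (0.16, 0.17 and 0.05, mean 0.13) and ZNF75A (0.06, 0.09 and 0.10, mean 0.08) had 1 sign in all 3 samples. The lowest limma adjusted p among these was 0.703, for ZNF205 at 3 hr. A sample's sign is that of the mean of both dye orientations. In each sample given, the orientations had opposite signs for ZNF75A at 3 hr, ZNF273 at 2 hr and ZNF32 at 1 hr. For ZNF205 at 3 hr they did in replicates 1 and 3. In replicate 2 alone they did for ZNF32 at 30 min, ZNF75A at 1 hr and ZNF271 at 2 hr. In no sample did they for ZNF277 and ZNF10 at 30 min, ZNF205 at 1 hr and ZFP92 at 2 hr.

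Across the time course, the mean of ZFP92 was above 0 at all 4 times (0.10, 0.13, 0.23 and 0.03). The means of ZNF10 (-0.47, -0.15, -0.37 and -0.86), ZNF44 (-0.13, -0.16, -0.07 and -1.0) and ZNF93 (-0.23, -0.41, -0.04 and -0.24) were below 0 at all 4. That made 1 and 3 of 21 members, against 35 (9.26%) and 51 (13.5%) of the 378 tested identifiers. Single samples ran against the mean of each of these members. ZFP92 was at -0.13 and -0.05 in replicates 2 and 3 of 3 hr, where ZNF10 was at 0.33 and 0.10 and ZNF93 at 0.22 and 0.29. ZNF10 was also at 0.34 in 1 hr replicate 1, and ZNF93 at 0.23 in 30 min replicate 1 and 0.17 in 2 hr replicate 1. ZNF44 stood at 0.17 in 30 min replicate 1 and at 0.13 in 1 hr replicate 1.

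The spread at 3 hr came from replicate 1. In that sample the ratio of ZNF10 was -3.01, of ZNF44 -2.66, of ZNF38 -1.78, of ZNF93 -1.21 and of ZFY -0.99. The other 2 samples of 3 hr had 0.33 and 0.10 for ZNF10, -0.47 and 0.13 for ZNF44, 0.21 and -0.11 for ZNF38, 0.22 and 0.29 for ZNF93, and 0.49 and 0.57 for ZFY. So all 5 members were above 0 in at least 1 of those samples, and ZNF10, ZNF93 and ZFY in both. With all 3 samples ZNF44 averaged -1.0 (SE 0.47, 95% interval -2.10 to 0.10, limma adjusted p = 0.649) and ZNF10 -0.86 (SE 0.59, 95% interval -2.24 to 0.52, limma adjusted p = 0.649). Without 3 hr replicate 1 the means were -0.17 for ZNF44, 0.22 for ZNF10, 0.05 for ZNF38, 0.25 for ZNF93 and 0.53 for ZFY. Also without it, 2 of 21 members were over 1.2-fold with the same sign, both higher in laser RNA (6.61% of the 378). They were ZFY and, named after its values were seen, ZFP91 at 0.28. The dye orientations of ZFP91 had opposite signs in replicates 2 and 3. Those of ZFY did in replicate 3 and not in replicate 2.

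Within that sample the arrays were examined one by one. ZNF10 was below 0 on 6 of 6 arrays, between -5.17 and -0.99, and ZNF44 on 5 of 6, between -5.70 and 0.37. The means over the 4 arrays of the earlier print and the 2 of the later print were -3.01 and -3.0 for ZNF10, and -2.54 and -2.90 for ZNF44. They were -2.46 and -0.41 for ZNF38, -1.67 and -0.30 for ZNF93, and -1.43 and -0.11 for ZFY, so for these members the arrays of the earlier print were further below 0. The part of the print in these values was not tested. Before normalization the picture was mixed. The ZNF10 signal was 393, 3359, 1297, 2249, 777 and 2282 in laser RNA, against 229, 2658, 5079, 13074, 1560 and 1085 in control RNA of the same arrays, lower in laser RNA on 3 of 6. Brighter probes had lower ratios in this sample. Over the 21 members the rank correlation of the ratio with signal over background was -0.55 in 3 hr replicate 1, and over the 378 tested identifiers it was -0.61, as a description across probes that share their arrays. In the other 8 samples it ran from -0.59 to 0.33 over the 21 members. With arrays centred on their median in place of loess, the mean of ZNF10 at 3 hr was -0.46 and that of ZNF44 at 3 hr -0.76.

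**Figure D4:**
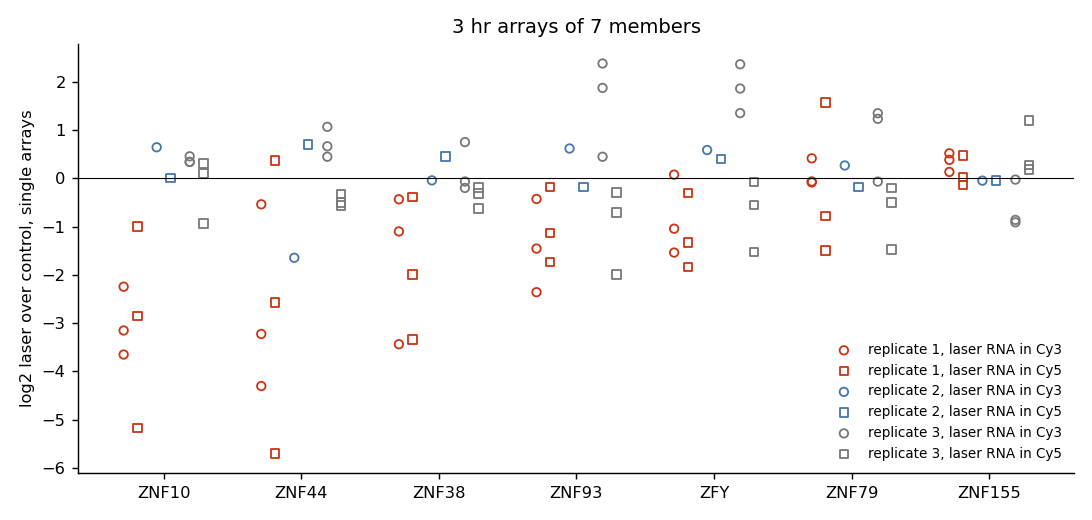
Log2 ratios of laser over control (y axis) on single arrays of 3 hr for 7 members, with replicate 1 in red, replicate 2 in blue and replicate 3 in grey, circles for laser RNA in Cy3 and squares for laser RNA in Cy5. The ZNF10 arrays of replicate 1 lie between -5.17 and -0.99, below all those of the other samples, and in replicate 3 circles and squares lie on opposite sides of 0 for ZNF44, ZNF93 and ZFY.

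A separate probe of the design, GIOT-2, is named by the study's supplement as ZNF44, so that gene may be read by a pair of probes. GIOT-2 is no member by its name. Its signal over background was 3.05, and its mean ratios in time order were -0.10, -0.01, -0.18 and -0.99. In the 3 hr samples it stood at -2.62, -0.30 and -0.04, and the member probe ZNF44 at -2.66, -0.47 and 0.13. Both probes were low in replicate 1 and close to 0 in replicate 3.

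The dye orientations of most samples did not repeat each other. The ratio with laser RNA in Cy3 and the ratio with laser RNA in Cy5, both turned to laser over control, correlated over the 21 members at 0.24 and 0.08 in the samples of 30 min, 0.58 and -0.18 at 1 hr, -0.07 and -0.23 at 2 hr, and 0.91, -0.45 and -0.92 at 3 hr. Over the 378 tested identifiers the values were 0.30 and -0.02, 0.31 and -0.64, 0.22 and -0.37, and 0.80, -0.78 and -0.80. All 21 members had opposite signs in both orientations in 3 hr replicate 3, where 84.4% of tested identifiers did. In the other samples 6 to 13 of 21 did, against 20.1% to 70.1% of tested identifiers. By member, ZNF10 had opposite signs in 1 of 9 samples, and ZNF44, ZNF79 and ZNF273 in 7 of 9. For ZNF44 in 3 hr replicate 2 the ratio was -1.64 with laser RNA in Cy3 and 0.71 with laser RNA in Cy5.

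**Figure D5:**
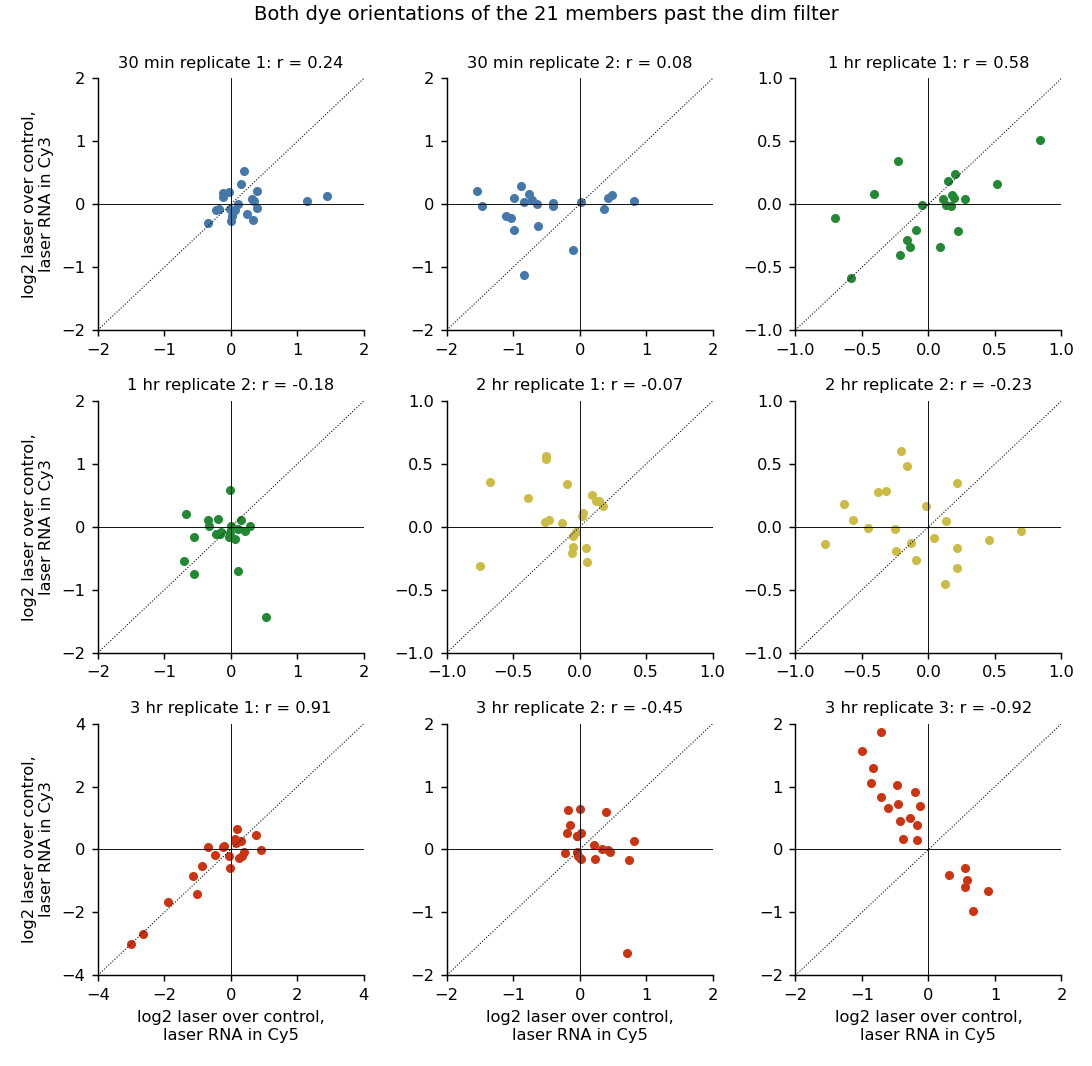
Log2 ratio of laser over control with laser RNA in Cy5 (x axis) and with laser RNA in Cy3 (y axis) for the 21 members past the dim filter, 1 panel per biological sample and with axes that differ between panels. Points on the dotted line agree in both orientations. They follow it in 3 hr replicate 1 (r = 0.91) and run across it in 3 hr replicate 3 (r = -0.92).

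The header of each of the 33 arrays names the dye of each channel, and the headers were followed for the direction. Where the suffix 3 arrays (laser RNA in Cy3) of the 4 opposed samples were reversed in sign, limma still called 0 members. At 3 hr, however, 10 of 21 members were then over 1.2-fold with the same sign, 4 higher and 6 lower in laser RNA. Of the tested identifiers 101 of 378 were (26.7%). In this reading 6 of 21 members and 68 of 378 identifiers (18.0%) had an unadjusted p under 0.05 at 3 hr. Where instead the suffix 5 arrays (laser RNA in Cy5) of the 4 opposed samples were reversed in sign, 0 members were called. In that reading 1 member was over 1.2-fold with the same sign at 3 hr, as were 10.6% of the 378 identifiers. On 2 arrays, 1 of 2 hr replicate 2 and 1 of 3 hr replicate 2, the names of the Cy3 and Cy5 files went against their headers. The deposited ratios follow the file names on these 2, and the direction there is not settled. In 3 hr replicate 2 the array in question was the only one with laser RNA in Cy3. By file name the orientation correlation of that sample, -0.78 over the 378 tested identifiers by header, thus turns its sign. This sample is opposed by header only. By file name 0 members were called, and at 3 hr 42 of 378 identifiers (11.1%) and 0 members had an unadjusted p under 0.05. By file name, ZNF44 at 3 hr was -0.45 and ZNF10 at 3 hr was -1.07.

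Without a filter on dim probes, all 170 members could be fitted, although most were near background. At an adjusted p under 0.05 limma called 0 of 170 members and 0% of the 1516 identifiers at each time. At an unadjusted p under 0.05 there were 4 members among 28 identifiers (1.85% of the 1516) at 30 min, 2 among 22 (1.45%) at 1 hr, 3 among 81 (5.34%) at 2 hr and 3 among 29 (1.91%) at 3 hr. These 12, named after their values were seen, were ZNF31 (0.39), ZNF183 (0.31), ZNF304 (0.24) and ZNF207 (-0.25) at 30 min, ZNF239 (0.44) and ZNF157 (-0.41) at 1 hr, ZNF43 (0.39), ZNF361 (0.33) and ZNF162 (0.28) at 2 hr, and ZNF91 (0.33), ZNF173 (0.32) and ZNF288 (0.23) at 3 hr. None of them recurred at a second time. ZNF361 was above background on 2 of 8 laser arrays and 0 of 8 control arrays at 2 hr, and the ratios of such probes rest on few readable spots. Over 1.2-fold with the same sign in all samples were 6, 5, 9 and 3 of 170 members at 30 min, 1 hr, 2 hr and 3 hr, against 5.94%, 5.21%, 10.5% and 2.64% of all 1516 identifiers.

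By sign, 82, 70, 87 and 109 of the 170 members had a mean above 0 at 30 min, 1 hr, 2 hr and 3 hr (48.2%, 41.2%, 51.2% and 64.1%), and 51.3%, 47.3%, 50.1% and 54.3% of all identifiers did. The share at 3 hr was the farthest from the background. It was 113 of 170 in replicate 1, 89 in replicate 2 and 92 in replicate 3, so it was largest in the sample that stood apart. Of the 70 KRAB members 32, 24, 34 and 49 were above 0 at these times. Of the 20 SCAN members 9, 6, 10 and 11 were, and of the 9 BTB members 7, 6, 7 and 7. The RING finger list had 5, 5, 5 and 2 of 8 above 0. The medians of the class lists lay between -0.15 and 0.11 on the log2 scale at every time.

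Among the less bright class leaders, ZNF46 had ratios of -0.00 and -0.43 at 30 min, 0.01 and -0.04 at 1 hr, 0.03 and 0.03 at 2 hr, and 0.33, -0.00 and 0.06 at 3 hr. ZNF261 had means of -0.10, 0.04, -0.14 and 0.05 in time order. Some of these values rest on few readable arrays. ZNF46 was above background on 2 of 5 arrays in each channel at 30 min and on 1 of 6 at 1 hr. ZNF261 was above it on 2 of 6 laser and 1 of 6 control arrays at 1 hr, and on 2 of 8 in each channel at 2 hr. ZNF187, the SCAN leader, had 0.08 and -0.75 at 30 min and stayed between -0.30 and 0.23 in the later samples. ZFP36 had 0.04 and -0.19 at 30 min, 0.07 and -0.65 at 1 hr, 0.17 and -0.13 at 2 hr, and -0.06, 0.04 and 0.28 at 3 hr, so at each time its samples lay on both sides of 0. ZFY had 0.79 and -0.98 at 30 min, the widest gap of a tested member between the 2 samples of that time. At 1 hr ZNF173, ZNFN1A3 and ZFHX1B were each well above background on 0 of 6 laser arrays and on only 1 of 6 control arrays, so no ratio is given there. At 30 min, 2 hr and 3 hr the mean was 0.16, 0.07 and 0.32 for ZNF173, 0.13, 0.12 and 0.09 for ZNFN1A3, and -0.05, -0.12 and -0.01 for ZFHX1B. Few arrays were readable for them at 30 min and 2 hr too. At 30 min ZNF173 was above background on 2 of 5 arrays in each channel, and ZNFN1A3 and ZFHX1B on 1 of 5. At 2 hr ZNF173 and ZNFN1A3 were above it on 3 of 8 laser and 1 of 8 control arrays, and ZFHX1B on 1 of 8 in each channel. At 3 hr it was 10, 7 and 5 of 14 laser arrays for ZNF173, ZNFN1A3 and ZFHX1B.

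The study set several zinc finger genes side by side over its tissues and forms of injury. Its separate list for the laser-wounded utricle gives, among others, ZNF93, ZNF75A, ZFY, ZNF187 and GIOT-2 as higher in laser RNA at 3 hr. The same list gives ZNF135 and ZNF214 as lower at 3 hr, ZNF21 as lower at 1 hr and ZNF93 as lower at 30 min. Here ZNF21, ZNF135 and ZNF214 did not pass the dim filter. The means here at 3 hr were -0.24 for ZNF93, 0.08 for ZNF75A, 0.02 for ZFY, 0.02 for ZNF187 and -0.99 for GIOT-2. In 3 hr replicate 1, the sample that stood apart, ZNF93 was at -1.21, ZFY at -0.99, ZNF187 at -0.30 and GIOT-2 at -2.62. Without this sample the means were 0.25 for ZNF93, 0.09 for ZNF75A, 0.53 for ZFY and 0.17 for ZNF187. GIOT-2 was at -0.30 in 3 hr replicate 2 and at -0.04 in 3 hr replicate 3. The study used another filter and test, removed hybridizations it took as poor, and kept genes whose trend held in most replicate hybridizations. The difference from the values here was not tested. Where the study had chosen genes on these arrays, their values here are no independent evidence. Of the genes it set side by side, ZNF93, ZNF44 and ZNF75A are described above. For ZNF44 the study's list for the laser-wounded utricle holds the probe GIOT-2, and not the member probe ZNF44. ZNF79 had means of -0.10, -0.03, 0.02 and 0.01 in time order, with samples between -0.40 and 0.20. ZNF90, another KRAB member, had a signal over background of 1.64 and did not pass the dim filter (13 of 33 arrays). Its ratios were 0.04 and -0.64 at 30 min, -0.20 and -0.29 at 1 hr, -0.12 and -0.42 at 2 hr, and -0.58, 0.24 and 0.06 at 3 hr. Both samples of 1 hr and of 2 hr were below 0 for ZNF90, and it was not tested. The probe ZF5128, which the study's tables pair with ZNF324, had a signal over background of 0.95, and did not pass the dim filter (9 of 33 arrays). Just outside the naming rule stood ZNF-U69274 (signal over background 1.22) and ZNF-kaiso (1.08). Neither passed the dim filter, and their mean ratios lay between -0.19 and 0.16.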

How the data were processed

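Per the file headers, the deposited channel files of the 33 arrays hold linear intensity values of each spot and of its surroundings from ImaGene, not normalized. The authors then applied lowess, filters on poor hybridizations, dim genes and trend, and a t-test, and those values were not used here. In the deposited series table the values are log2 ratios of laser over control with the dyes taken by file name. They equal raw channel ratios with a largest difference of 6.22e-15, have column medians from -2.05 to 2.47, and served as an alternative. On the 2 arrays where file names and headers disagree, they thus run opposite to the reading of the headers.

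Background was corrected with normexp (offset 50) and ratios were normalized by loess within arrays, with control spots at weight 0. The 18 control identifiers were then left out and duplicate spots averaged. Ratios were turned to laser over control by the dye in the headers, which differed from the file names on 2 arrays. Arrays were averaged within each dye orientation, then over both, giving 9 biological samples. Each time point mean was tested against 0 with limma 3.58.1 under R 4.3.3 (statmod 1.5.0 for block fits), with 5 residual degrees of freedom, and p-values were adjusted by Benjamini-Hochberg over the 378 probes past the dim filter. The fit was tested on simulated data, in which a fixed dye effect of each probe cancelled between orientations. That run does not cover samples whose orientations were opposed. The number of samples limits the precision. The labels call the samples biological replicates, and the pooling of cultures is taken from the study's methods.

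The members and gene lists were chosen with earlier results of these data known. Named genes were, at each time point, the 3 members with the smallest p among those past the filter with 1 sign in all samples, then the 2 with the smallest F p, the 8 with the highest signal over background, the highest of each class, and zinc finger genes that the study compared across its time courses. Alternatives changed background correction, normalization, filter, dye reading, averaging, test, block and samples.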

Additional observations from a re-analysis of the deposited data

Results flagged for a closer look

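A single array stood far from the others of its time point in 7 of 51 comparisons, and about 1 in 20 groups does so by chance. That rate holds for independent groups, while these comparisons share arrays. The 14 arrays of 3 hr were too many for the rule used and were not compared. The members' median signal over background in the control channel at 1 hr was 2.04 on 1 array of replicate 1, the next being 1.07. On the 30 min arrays, ZNF277 was at -0.73 on 1 array of replicate 2 (next -0.17). On another array of that sample ZNF271 was at -1.55 (next 0.16), ZNF79 at -0.83 (next 0.04) and ZNF187 at -1.47 (next -0.03). On the 1 hr arrays, ZNF271 was at -0.64 on 1 array of replicate 1 (next -0.04) and ZNF44 at -1.43 on 1 array of replicate 2 (next 0.05).

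In 5 of 84 pairs of time points, over 14 members, every sample of one time moved opposite to every sample of the other. The share over all tested identifiers was not computed, so this count has no background to be read against. Some of the 14 were named for having 1 sign in all samples of a time point, which favours such pairs. The mean of ZNF75A was 0.08 at 3 hr, against -0.26 at 1 hr (difference 0.34) and -0.11 at 2 hr (difference 0.19). That of ZNF205 was 0.13 at 3 hr, against -0.20 at 1 hr (difference 0.32). ZNF273 was at 0.14 at 2 hr, against -0.05 at 1 hr (difference 0.19), and ZFY at 0.11 at 2 hr, against -0.30 at 1 hr (difference 0.41). These differences were not tested singly, and the F test over time points called 0 of 21 members.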

How the results depend on the processing

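Over 27 alternatives, 9 of them leaving out 1 sample each, the counts of members called were 0, as in the reported fit, in 131 of 132 cases. With single arrays as units and the image day as a random block, 1 member was called at 3 hr, ZNF10 (log2 -1.20, SE 0.34, limma adjusted p = 0.048, 12 of 378 identifiers called), and its mean at 3 hr was 0.22 without 3 hr replicate 1. Leaving out any sample gave 0 calls at every time and by the F test.

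Some signs turned. ZNF75A at 3 hr was -0.049 with plain background subtraction, -0.34 with the suffix 3 arrays of opposed samples reversed in sign and -0.060 without the earlier print. ZNF205 at 1 hr was 0.0042 from the deposited ratios, and ZNF205 at 3 hr was -0.18 with the suffix 5 arrays of opposed samples reversed in sign. ZNF273 at 2 hr was -0.11 from the deposited ratios, which take the dyes by file name, and -0.10 with suffix 3 reversed. ZNF271 at 2 hr was 0.14 with suffix 5 reversed, and ZNF32 at 1 hr was 0.12 with suffix 3 reversed. With the replicate block, ZNF10 at 30 min was 0.0087 and ZNF10 at 2 hr was 0.11. In that fit 3 members at 2 hr were over 1.2-fold higher by the adjusted mean, and 0 lower. The rule of 1 sign was applied to the unadjusted samples. ZNF44 was thus counted as higher, with an adjusted mean of 0.50, although its samples were -0.08 and -0.05. In the reported fit 0 members were higher and 1 lower. Of the 378 identifiers 20.6% met this rule in either direction with the replicate block, and 16.9% as reported. Only 3 hr had a replicate 3, so the block moved a probe's means at 30 min, 1 hr and 2 hr by the same amount.

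The median of the members tested ran from -0.32 to 0.04 at 30 min, -0.11 to 0.06 at 1 hr, -0.11 to 0.09 at 2 hr and -0.14 to 0.41 at 3 hr. The count of members over 1.2-fold with 1 sign in all samples is given without fits that left 1 sample at the time point. It ran from 0 to 6 at 30 min and from 0 to 9 at 2 hr, both highest with no dim filter, of 170 members. At that setting 5.94% and 10.5% of the 1516 identifiers met the rule. The count ran from 1 to 9 at 1 hr (highest with plain subtraction, 32.3% of the 378 identifiers). At 3 hr it ran from 0 to 10 (highest with suffix 3 of opposed samples reversed in sign, 26.7%). The methods' t-test over biological samples gave 0 members after Benjamini-Hochberg at each time, and 0 past its own fold and p thresholds. In time order 5, 6, 8 and 1 of the 378 identifiers passed those thresholds. Over single arrays 0, 2, 0 and 2 members in time order passed them, beside 6, 10, 24 and 27 of the 378 identifiers. After Benjamini-Hochberg 0 members did. Arrays of 1 sample are technical repeats, which this version counts as if they were samples. At 1 hr the members' median signal over background was 0.88, so low signal limits these values. The labels do not say that a replicate number marks a shared batch, but on 6 of the 8 image days that held more than 1 time point the samples had the same number. As deviations from the mean of their time point, same-numbered samples correlated between -0.37 and 0.25 (4 of 12 pairs over 0.1). Samples of another number correlated between -0.28 and 0.37 (9 of 18 pairs over 0.1). Where a time point has 2 samples, their deviations mirror each other. The pairs are thus not independent and cannot decide whether the number marks a shared batch. With the replicate block 0 members were called.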
